A study of Mus musculus with 9 samples.

Results

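The genes described here are 10 mouse regulators of alternative splicing with known roles in heart and skeletal muscle, namely Rbfox1, Rbfox2, Mbnl1, Mbnl2, Mbnl3, Celf1, Celf2, Rbm20, Rbm24 and Rbm38. They were taken by name, with earlier results of these data known. All 10 were found among the 19938 genes to which the array annotation gives a transcript cluster of their own. A transcript cluster is the set of probes summarised into 1 value on the Affymetrix Mouse Gene 1.0 ST array, and the 10 genes held 12 of the 33323 clusters. Where a gene had a pair of clusters (Celf1 and Celf2), the brighter over the beating and non-beating arrays stood for the gene.

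The arrays measured RNA from a primary culture of the stromal vascular fraction (SVF), the mixed non-adipocyte cells of fat, taken from subcutaneous fat of C57BL6/J mice aged 10 weeks. All cells grew in minimal medium with serum on uncoated plastic, with no added factor and no transgene in any group. The beating group (4 arrays) held spontaneously contracting colonies picked by hand on day 28, with the colonies of a few dishes combined per sample. The non-beating group (4 arrays) held the other cells of the dish on day 28. A single array held a pool of 6 round cells picked with a cell-picking instrument on day 14. Hand-picked colonies can hold neighbouring cells, and the labels do not say how many mice stood behind each array.

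RNA-binding proteins of this kind recognise short motifs in pre-mRNA and, from the position of the motif, favour inclusion or skipping of nearby exons. Rbfox, Muscleblind-like (Mbnl) and Celf proteins together switch many transcripts from fetal to adult isoforms in striated muscle, where Mbnl and Celf proteins often act in opposite directions and Mbnl proteins are lost to toxic repeat RNA in myotonic dystrophy. Rbm20 keeps exons of titin out of the mature transcript in the heart, and Rbm24 and its paralog Rbm38 act on splicing and mRNA stability during muscle differentiation.

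In beating colonies, 4 of the 10 regulators rose against non-beating cells and none passed the test as lower. Rbfox1 rose 2.52-fold, Rbm20 2.04-fold, Celf2 1.57-fold and Rbm38 1.51-fold, each at an adjusted p under 0.05 (limma, two-sided, Benjamini-Hochberg over all 33323 clusters, 4 arrays against 4). The folds of Rbfox1 and Rbm20 are set against non-beating signals near or below the array median, so background may limit their size. Over all clusters, 2.82% passed as higher and 3.34% as lower, or 6.16% in all. At an unadjusted p under 0.05, 6 regulators were higher and 2 lower, where 8.89% and 12% of all clusters were (8 of 10 regulators in either direction, against 20.9%). After the same adjustment, the methods' t-test called 3 higher and 0 lower, beside 1.47% and 1.13% of all clusters. The median difference over the 10 regulators was 0.51 on the log2 scale, beside 0.0073 over all clusters. Beating and non-beating arrays did not overlap for 5 regulators that were higher (5.98% of all clusters) and for 1, Mbnl1, that was lower (8.24%), together 6 of 10 beside 14.2%. As the 10 genes were chosen with earlier results known, these counts beside all clusters are a description only. These array values summarise whole genes and do not measure which exons were used. They come from mixed cells, in which fewer cells of a type and less RNA per cell cannot be told apart, and the p-values measure only the spread between these samples, which may be technical.

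**Figure D1:**
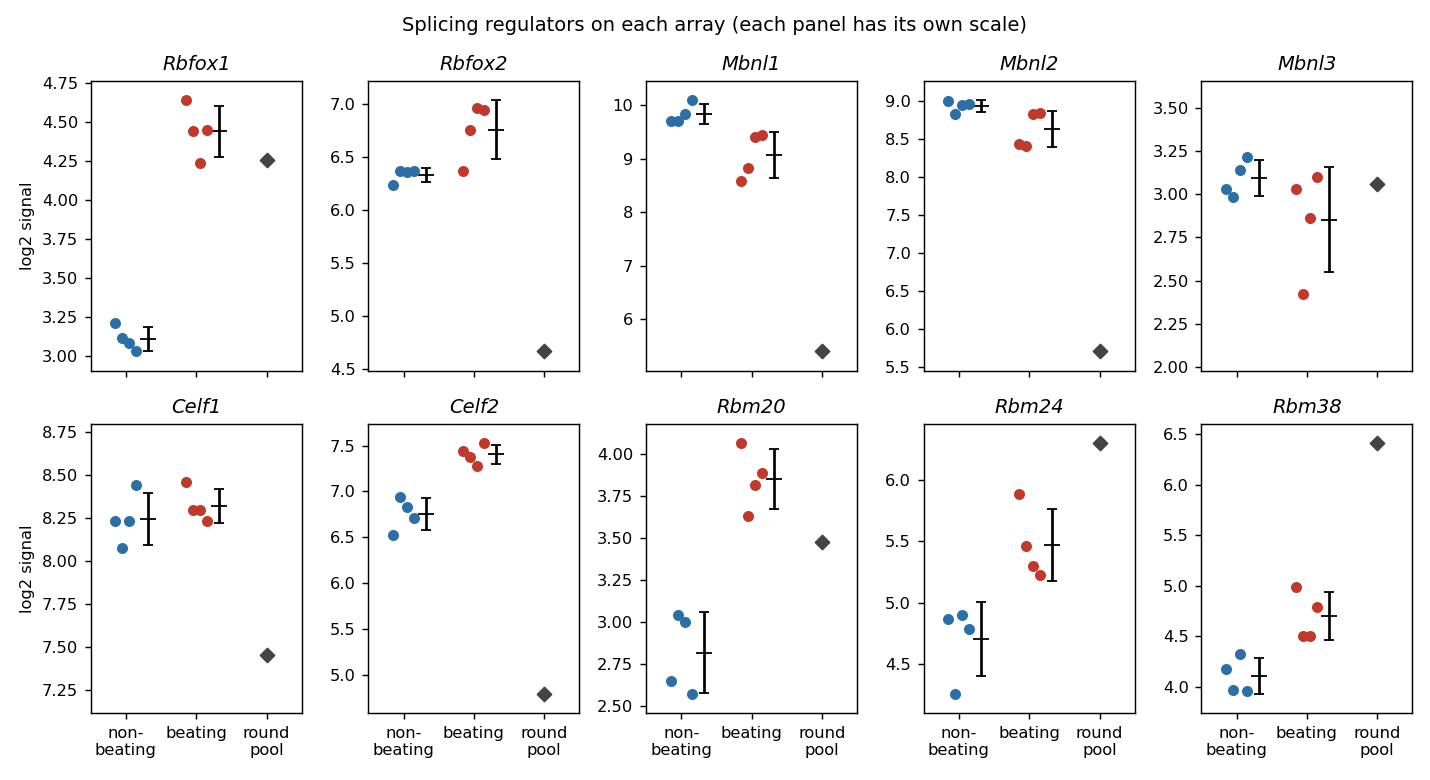
Log2 signal of each of the 10 splicing regulators on every array, with beating, non-beating and round-pool arrays as separate points (each panel with its own scale) and black bars for the mean ± SD of each group of 4. Rbfox1 lies at 4.24 to 4.64 in beating and 3.03 to 3.21 in non-beating arrays, whereas Mbnl1 lies lower in beating (8.59 to 9.45) than in non-beating arrays (9.71 to 10.09).

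Muscle content was checked against marker lists. Of 10 striated muscle markers, 9 rose in beating colonies, with a median difference of 5.79 on the log2 scale, and the mean level of the list was 9.06 to 9.39 on beating and 3.66 to 4.17 on non-beating arrays. Of 8 cardiac markers, 3 rose: Myl4 and Myl2, which are also made in embryonic and slow skeletal muscle respectively, and Myh6. Myl3, Myl7, Tnni3, Nppa and Nkx2-5 did not pass, and Myh6, Myl7 and Nppa lay below the array median on all 8 arrays. Beating replicate 1 stood apart within its group: it had the lowest mean level of the 4 beating arrays for adipose stromal (5.71 against 5.99 to 6.56), macrophage (3.37 against 4.07 to 5.14), endothelial (3.60 against 4.71 to 5.37) and smooth muscle markers (5.52 against 5.91 to 6.25). It was also lowest for housekeeping (9.04 against 9.25 to 9.33), SR protein (6.77 against 7.12 to 7.15), hnRNP (7.66 against 7.92 to 7.98) and core spliceosome genes (6.25 against 6.40 to 6.51). Without it, the difference between beating and non-beating arrays was 1.27 for Rbfox1, 0.55 for Rbfox2, 0.96 for Rbm20, 0.64 for Celf2, 0.029 for Celf1, 0.62 for Rbm24 and 0.49 for Rbm38 on the log2 scale. For Mbnl1, Mbnl2 and Mbnl3 it was −0.61, −0.24 and −0.30. Identical values recur between arrays in these data: 48.9% of clusters, and 5 of the 10 regulators, held the same value on at least 2 of the 8 arrays.

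Rbfox1 and Rbfox2 encode paralogous splicing factors, the former enriched in brain, heart and skeletal muscle and the latter more broadly expressed. The log2 signal of Rbfox1 was 4.64, 4.44, 4.24 and 4.45 on beating replicates 1 to 4 and 3.21, 3.12, 3.08 and 3.03 on non-beating replicates 1 to 4. All beating arrays lay above all non-beating arrays, with 1.03 between the nearest values, on a dim signal in both groups (array medians were 3.08 to 3.17). The means were 4.44 ± 0.16 and 3.11 ± 0.076 (SD, n = 4 each), a difference of 1.33 (SE 0.09, 95% interval 1.12 to 1.54, adjusted p = 0.0001215 by limma). This was the largest difference among the 10 regulators and held under all 17 alternative settings or left-out arrays that gave it a value, with the highest adjusted p at 0.00288.

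The Rbfox2 signal was 6.37, 6.76, 6.96 and 6.95 in beating and 6.24, 6.37, 6.36 and 6.37 in non-beating replicates. The groups met at 6.37, a value that beating replicate 1 and a pair of non-beating arrays shared exactly, while the other 3 beating arrays lay above every non-beating array. The means were 6.76 ± 0.27 and 6.34 ± 0.065 (SD, n = 4 each), and the difference of 0.42 (SE 0.13, 95% interval 0.12 to 0.72) did not pass (limma adjusted p = 0.107). Without beating replicate 1 it was 0.55 and passed (adjusted p = 0.00957). It also passed with array weights (adjusted p = 0.0277) and quantile normalization (adjusted p = 0.0323). Rbfox1 thus differed between the groups by 0.91 more than Rbfox2 (SE 0.22). The exact two-sided permutation p was 0.0286, the smallest that 70 splits allow (adjusted p = 0.0429 over 6 pairs of paralogs). The pairs were compared after the values were seen. The adjustment also counts the pair of Mbnl1 and Mbnl3, which has the same permutation p and is not read below. The difference between Rbfox1 and Rbfox2 stayed at 0.71 to 1.04 with any 1 array left out. Rbfox1 lay near the array median in non-beating cells, so background may limit the size of this difference.

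The stretches upstream of the annotated starts of Rbfox1 and Rbm38 are shown as examples from the genes that rose in beating colonies. Rbfox1 rose the most of the 10, and its annotated starts lie far apart. Celf2 also rose, and its windows, some of which held an E-box, are counted below but not printed. The sequences come from RefSeq on GRCm38.p6, both genes lie on the plus strand, and capitals mark each E-box, the motif CANNTG that myogenic basic helix-loop-helix factors bind. The Rbm38 stretch is trimmed to end before the outermost annotated start of the gene.
Rbfox1 upstream of the outer start, chr16:5884543-5884792: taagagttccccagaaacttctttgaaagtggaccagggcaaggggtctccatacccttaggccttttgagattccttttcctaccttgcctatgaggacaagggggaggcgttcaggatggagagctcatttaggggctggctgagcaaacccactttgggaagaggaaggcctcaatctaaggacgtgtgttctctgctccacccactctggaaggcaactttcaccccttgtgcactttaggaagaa
Rbfox1 upstream of the inner start, chr16:7069585-7069834: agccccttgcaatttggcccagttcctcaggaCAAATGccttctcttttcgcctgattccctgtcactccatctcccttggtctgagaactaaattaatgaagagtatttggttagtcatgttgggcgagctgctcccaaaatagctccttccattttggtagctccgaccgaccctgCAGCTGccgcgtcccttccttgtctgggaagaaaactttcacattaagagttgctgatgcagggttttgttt
Rbm38, chr2:173021652-173021890: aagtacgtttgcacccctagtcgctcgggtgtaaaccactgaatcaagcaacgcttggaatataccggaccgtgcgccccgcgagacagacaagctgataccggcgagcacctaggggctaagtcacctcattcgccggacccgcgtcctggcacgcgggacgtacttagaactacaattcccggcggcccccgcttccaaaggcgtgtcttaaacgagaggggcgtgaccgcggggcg
The inner Rbfox1 stretch held 2 E-boxes, CAAATG and CAGCTG, whereas the outer Rbfox1 stretch and the Rbm38 stretch held none. The array does not tell which start was used. RefSeq promoter windows were listed for 8 of the 10 regulators (14 windows, none listed for Rbfox2 or Rbm20). An E-box stood in 7 of these 14 windows, within the 250 bases before the start, as against 66.2% of all 32851 windows. The form CAGCTG stood in 1 of 14, in Rbfox1, and in 13% of all windows. The MEF2 box and the CArG box stood in 0 of 14, beside 2.92% and 1.47% of all windows. Motifs were sought on both strands, CAGCTG is itself an E-box, and windows of neighbouring Celf2 starts overlap.

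Rbm20, the regulator of titin splicing, had log2 signals of 4.06, 3.63, 3.81 and 3.88 on beating and 2.65, 3.04, 3.001 and 2.57 on non-beating replicates. The groups were separated by 0.59, and every non-beating value lay below the median of the array (3.08 to 3.17), where the deposited values give no detection call. The means were 3.85 ± 0.18 and 2.82 ± 0.24 (SD, n = 4 each), a difference of 1.03 (SE 0.14, 95% interval 0.71 to 1.35, limma adjusted p = 0.00521). Rbm20 passed under 16 of 17 alternatives and left-out arrays, the exception being the methods' t-test at an unadjusted p under 0.0001.

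Celf1 and Celf2 encode CUG-binding proteins, of which Celf1 is the classical antagonist of Mbnl proteins in muscle. Celf2 signals were 7.44, 7.38, 7.28 and 7.53 in beating and 6.53, 6.94, 6.83 and 6.71 in non-beating replicates, so that every beating array was above every non-beating array. The means were 7.41 ± 0.10 and 6.75 ± 0.18 (SD, n = 4 each), a difference of 0.65 (SE 0.10, 95% interval 0.42 to 0.88, limma adjusted p = 0.00951). The second cluster of Celf2 was dim, at 3.18 ± 0.27 and 3.04 ± 0.041, and its difference of 0.15 did not pass (adjusted p = 0.583). With the mean of both clusters the Celf2 difference was 0.40 (adjusted p = 0.0402).

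For Celf1 the signals were 8.46, 8.30, 8.30 and 8.23 in beating and 8.23, 8.08, 8.23 and 8.44 in non-beating replicates. The groups overlapped, and the lowest array was non-beating replicate 2. The means were 8.32 ± 0.096 and 8.25 ± 0.15 (SD, n = 4 each), with a difference of 0.075 (SE 0.089, 95% interval −0.13 to 0.28, limma adjusted p = 0.704), and the other Celf1 cluster differed by 0.27 (adjusted p = 0.359). The Celf1 difference ran from 0.019 without non-beating replicate 2 to 0.14 without non-beating replicate 4. Celf2 exceeded Celf1 in its difference between groups by 0.58 (SE 0.16, exact permutation p = 0.0286, adjusted p = 0.0429 over the 6 pairs), and by 0.50 to 0.70 with any 1 array left out.

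The 3 Muscleblind-like genes were the regulators with lower means in beating colonies, and none of them passed. Mbnl1 signals were 8.59, 8.83, 9.41 and 9.45 in beating and 9.71, 9.71, 9.84 and 10.09 in non-beating replicates. No beating array reached the lowest non-beating array, with a gap of 0.26. The means were 9.07 ± 0.43 and 9.84 ± 0.18 (SD, n = 4 each), which is 1.71-fold lower, a difference of −0.77 (SE 0.21, 95% interval −1.25 to −0.29, limma adjusted p = 0.0716). The difference was −0.61 without beating replicate 1, the lowest array (adjusted p = 0.107). Mbnl1 passed as lower with dim clusters left out (adjusted p = 0.0396) and with the methods' 1.5-fold prefilter (adjusted p = 0.0448).

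Mbnl2 signals were 8.44, 8.41, 8.83 and 8.84 in beating and 9.004, 8.83, 8.95 and 8.96 in non-beating replicates. Beating replicates 3 and 4 reached the non-beating range and replicates 1 and 2 lay below it. The means of 8.63 ± 0.24 and 8.93 ± 0.074 (SD, n = 4 each) differed by −0.31 (SE 0.12, 95% interval −0.57 to −0.036, limma adjusted p = 0.185).

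Mbnl3, a family member linked to muscle precursors, gave 3.03, 2.42, 2.86 and 3.10 in beating and 3.03, 2.99, 3.14 and 3.21 in non-beating replicates. The groups overlapped, and the signals sat near or below the array medians, so little can be read from them. The means were 2.85 ± 0.31 and 3.09 ± 0.10 (SD, n = 4 each), with a difference of −0.24 (SE 0.15, 95% interval −0.58 to 0.099, limma adjusted p = 0.415). It moved most without beating replicate 2, to −0.095. The beating minus non-beating difference of Mbnl1 minus that of Mbnl2 was −0.47 (SE 0.14, exact permutation p = 0.0286, adjusted p = 0.0429 over the 6 pairs), and −0.53 to −0.37 with any 1 array left out. The remaining pairs, which set Mbnl1 and Mbnl2 against Mbnl3, are not read because Mbnl3 was low in beating and non-beating arrays alike. They still count among the 6 pairs of the adjustment.

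Rbm24 and Rbm38 encode closely related single-domain RNA-binding proteins, of which Rbm38 is also a target of p53. Rbm24 signals were 5.88, 5.46, 5.30 and 5.22 in beating and 4.87, 4.26, 4.90 and 4.79 in non-beating replicates. All beating arrays lay above all non-beating arrays, by 0.32 at the nearest. The means were 5.47 ± 0.29 and 4.70 ± 0.30 (SD, n = 4 each), and the difference of 0.76 (SE 0.19, 95% interval 0.33 to 1.20) missed the threshold (limma adjusted p = 0.0550). Rbm24 passed with dim clusters left out (adjusted p = 0.0305) and with the 1.5-fold prefilter (adjusted p = 0.0409), and in no fit that left out an array.

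For Rbm38 the signals were 4.99, 4.51, 4.51 and 4.79 in beating and 4.17, 3.97, 4.32 and 3.96 in non-beating replicates. The groups did not overlap, with 0.18 between the nearest arrays. The means were 4.70 ± 0.24 and 4.11 ± 0.18 (SD, n = 4 each), a difference of 0.59 (SE 0.14, 95% interval 0.28 to 0.90, limma adjusted p = 0.0430). The call was fragile: it was lost without each of the 8 arrays in turn (adjusted p = 0.0515 to 0.124), with a difference of 0.49 without beating replicate 1. Median centring, quantile normalization and the methods' t-test gave adjusted p = 0.0521, 0.0682 and 0.114. Rbm24 and Rbm38 did not differ from each other in their change between groups by more than the spread (difference 0.17, SE 0.16, exact permutation p = 0.343, 0.067 to 0.28 with any 1 array left out).

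**Figure D2:**
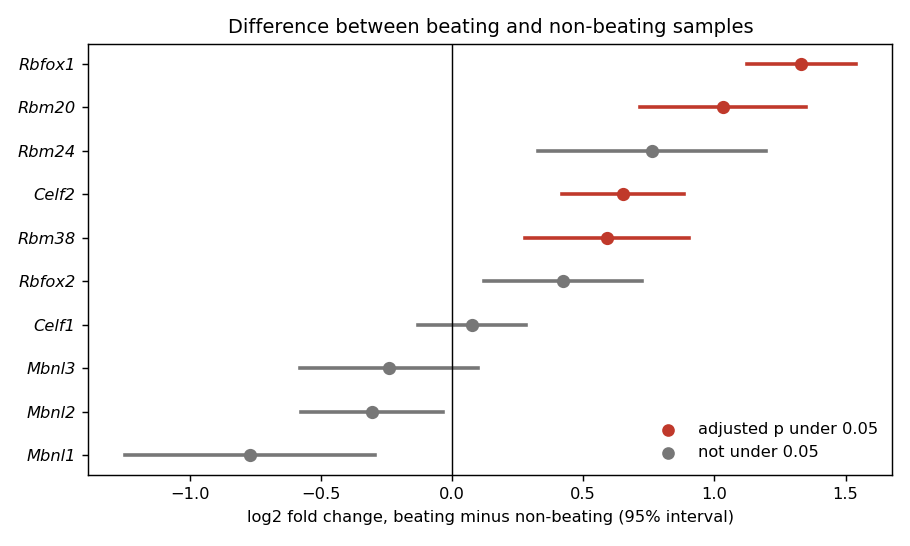
Difference in log2 signal, beating minus non-beating, for each of the 10 regulators, with 95% intervals from the limma fit. Rbfox1 (1.33), Rbm20 (1.03), Celf2 (0.65) and Rbm38 (0.59) are the genes that passed, and the Mbnl genes lie left of 0.

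**Figure D3:**
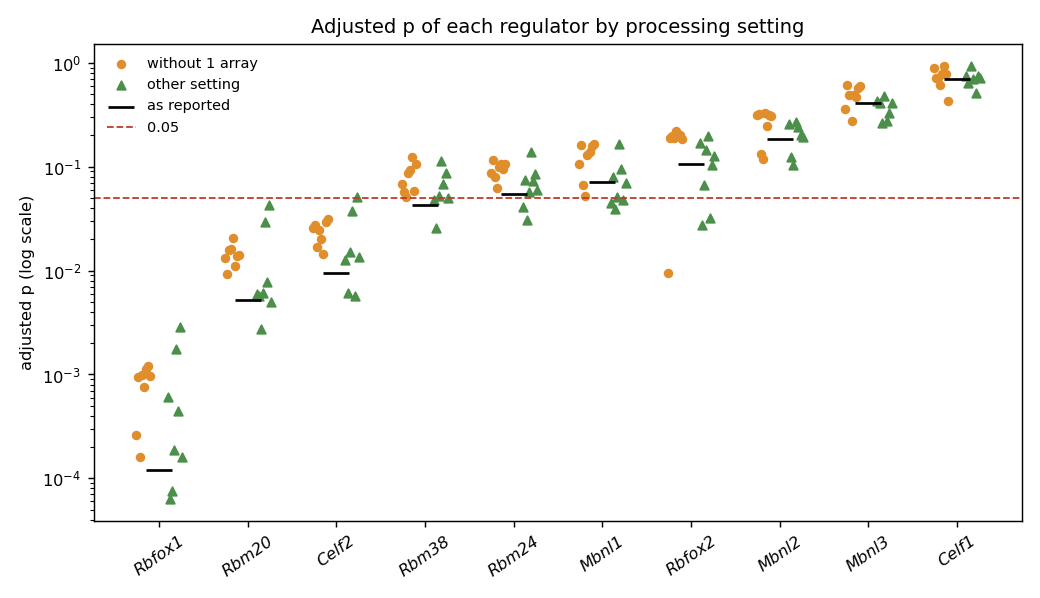
Adjusted p of each regulator in the reported fit and under each alternative setting or left-out array, on a log axis with the threshold at 0.05. The methods' t-test at an unadjusted p and the other or averaged clusters of Celf1 and Celf2 are left out. All points of Rbfox1 and Rbm20 lie past the threshold, 1 of Celf2 (0.0517) does not, those of Celf1, Mbnl2 and Mbnl3 never do, and those of Rbm38, Rbm24, Mbnl1 and Rbfox2 fall on both sides.

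Among the 4 beating arrays, replicate 1 had the lowest Mbnl1 (8.59) and Rbfox2 (6.37). It had the highest Rbm24 (5.88), Rbm38 (4.99), Rbm20 (4.06), Rbfox1 (4.64) and Celf1 (8.46). For Mbnl2, Mbnl3 and Celf2 it was neither highest nor lowest. How often this array was highest or lowest over all clusters was not counted, so these positions are a description only. The same array had the highest mean of striated muscle markers (9.39 against 9.06 to 9.29). The adipose stromal markers, at 5.71 to 6.56 on beating and 6.79 to 7.07 on non-beating arrays, moved between the groups in the same direction as Mbnl1, and 2 of their 8 genes fell (Thy1 and Pdgfra). Macrophage markers ranged over 3.37 to 5.14 on beating and 5.20 to 6.62 on non-beating arrays, with 1 of 10 called lower (Mpeg1) and 9 of 10 at an unadjusted p under 0.05. The part of these other cell types, and of the lower housekeeping and splicing-gene signals of beating replicate 1, in the regulators' differences was not tested.

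**Figure D4:**
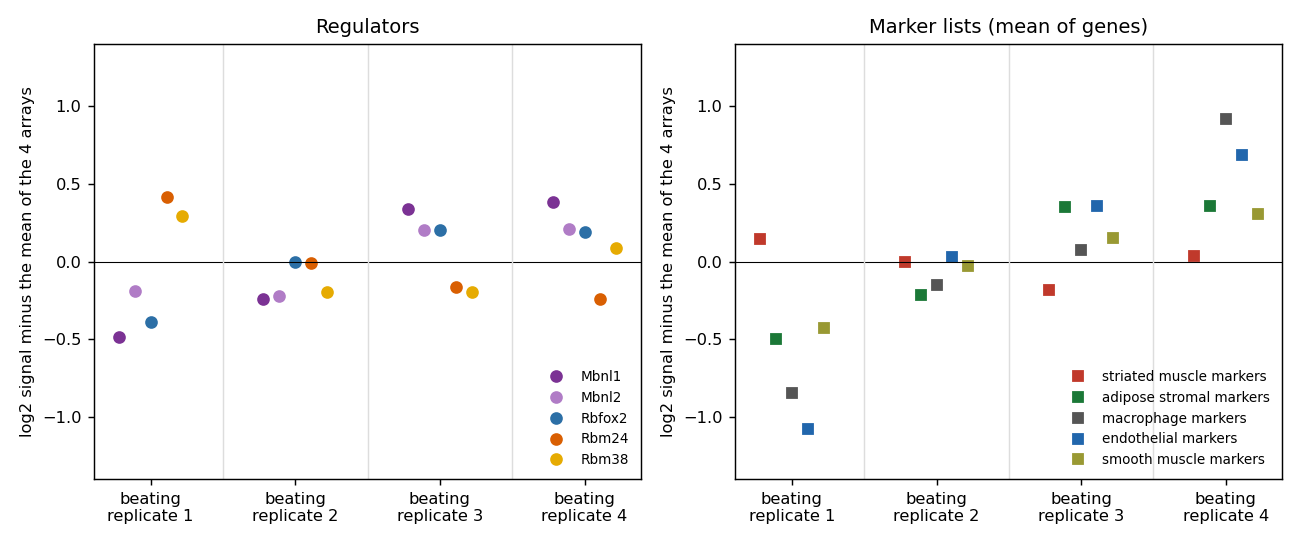
Departure of each beating array from the mean of the 4 beating arrays, in log2 signal, for 5 regulators (left) and for the mean of 5 marker lists (right). Replicate 1 lies lowest for Mbnl1, Rbfox2 and for stromal, macrophage, endothelial and smooth muscle markers, and highest for Rbm24 and Rbm38. The replicate numbers carry no order.

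The other marker lists are given beside all clusters, of which 2.82% passed as higher and 3.34% as lower. Adipocyte markers had 3 of 8 called lower (Lpl, Adipoq and Pparg), and 1 smooth muscle marker of 8 was higher (Smtn). Endothelial markers had 0 of 8 past the limma test and 0 at an unadjusted p under 0.05. Lymphocyte markers (6 of 8 analysed) and Schwann and neuronal markers (6 of 8 analysed) had none past the limma test or the methods' t-test after adjustment, with 1 each at an unadjusted p under 0.05. Of 6 housekeeping genes, Rplp0 alone passed, as lower (difference −0.39). The calls of Thy1, Lpl and Smtn held without any 1 array, whereas Pdgfra was lost without non-beating replicate 2 or 3, Adipoq without 3, Pparg without 4, Rplp0 without 6 and Mpeg1 without 7 of the 8 (highest adjusted p = 0.138).

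The genes whose pattern was most like each regulator that rose were found by Pearson's r over the 8 beating and non-beating arrays, among 19937 genes, as a description in which the gap between the groups supplies most of the likeness. Rbfox1 was closest to Rtn2 (r = 0.998), Myot, which encodes the Z-disc protein myotilin (r = 0.998), and Atp2a1, the calcium pump of the sarcoplasmic reticulum (r = 0.996), and 235 genes exceeded an r of 0.95 with it. Rbm20 was closest to Tmem62 (r = 0.989), AW551984 (r = 0.983) and the titin-associated ankyrin repeat gene Ankrd23 (r = 0.982), with 46 genes over 0.95. Celf2 was closest to the adhesion molecule gene Ncam1 (r = 0.981), the calcium channel subunit gene Cacna2d1 (r = 0.979) and the protein kinase A subunit gene Prkar1a (r = 0.976), with 27 genes over 0.95. Only 6 genes exceeded 0.95 with Rbm38, led by Gm4787 (r = 0.983), Csn1s2b (r = 0.978) and Ttll7 (r = 0.969).

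In the round pool, a single array without replicate, Rbm24 and Rbm38 lay above all 8 other arrays. Their signals were 6.30 and 6.41, or 0.83 and 1.71 above the beating means and 1.59 and 2.30 above the non-beating means on the log2 scale. Over all clusters, 46.4% lay above all 8 arrays, but among the 8331 brightest clusters, which hold Rbm24, the share was 11%, and among the next 8330, which hold Rbm38, it was 41.9%. Both stayed above all 8 arrays after quantile normalization and after median centring of the 9 arrays, where Rbm24 was 1.89 and 0.43 above the beating mean and Rbm38 2.75 and 1.32 above it. Under these scalings, 27.3% and 6.77% of the 8331 brightest clusters lay above all 8 arrays. Of the next 8330 clusters, 44.1% and 26.4% did.

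Rbfox1 and Rbm20 in the round pool, at 4.25 and 3.47, lay among the other arrays, above every non-beating array, and differed from the beating means by −0.19 and −0.37. Against the non-beating mean, Rbfox1 was 1.14 higher as deposited and 0.69 higher after median centring, and Rbm20 was 0.66 and 0.21 higher. Mbnl3, at 3.06, lay within the range of the 8 arrays, and its sign against the beating mean turned with scaling (0.21 as deposited, −0.24 and −0.19 after the other scalings).

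The remaining 5 regulators, Mbnl1 (5.40), Mbnl2 (5.71), Rbfox2 (4.67), Celf2 (4.79) and Celf1 (7.46), lay below all 8 arrays in the round pool, where 24.4% of all clusters did. All 5 belong to the 8331 brightest clusters, 72.7% of which lay below all 8. Against the non-beating mean, the pool differed by −4.44 for Mbnl1, by −3.22 for Mbnl2, by −1.96 for Celf2 and by −1.67 for Rbfox2. These 4 stayed below all 8 arrays after quantile normalization and after median centring, where 55% and 82.4% of the 8331 brightest clusters did. Staying below was thus common among clusters of this brightness. Celf1 (−0.79 as deposited) came to 0.23 above the non-beating mean after quantile normalization. The mean of the 6 analysed housekeeping genes was 5.60 in the round pool and 9.04 to 9.48 on the other arrays, and the mean of striated muscle markers was 9.43, near the beating arrays. The round array came from far less RNA and from day 14, so cell state, time and amplification cannot be told apart there.

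The other members of the Rbfox and Celf families (Rbfox3, Celf3, Celf4, Celf5 and Celf6), which are mainly neuronal, had 0 of 5 past the limma test, 0 at an unadjusted p under 0.05 and 0 by the methods' t-test after adjustment. Rbfox3, Celf3, Celf4 and Celf6 lay below the array median on all 8 arrays. Their median difference was −0.065.

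Among 29 analysed regulators of tissue-specific splicing outside the 10 genes, 4 rose and 2 fell, with a median difference of −0.084. Over all clusters, 2.82% passed as higher and 3.34% as lower. At an unadjusted p under 0.05, 9 of the 29 were higher and 7 lower, where 8.89% and 12% of all clusters were. Fxr1, a muscle-enriched relative of the fragile X protein, had log2 signals of 8.79, 8.65, 8.53 and 8.55 in beating and 7.52, 7.44, 7.43 and 7.73 in non-beating replicates. The groups lay far apart, and the difference was 1.10 (limma adjusted p = 0.000421), unmoved in call by any alternative or left-out array. Srpk3, a muscle-specific kinase of SR proteins, rose by 0.73 (adjusted p = 0.0149, or 0.0551 by the methods' t-test). The neuronal regulator Nova1 fell by 1.01 from 6.68 ± 0.29 in non-beating cells (SD, n = 4, limma adjusted p = 0.0101), and Rbpms, an RNA-binding regulator known from smooth muscle, fell by 0.99 (adjusted p = 0.0395), a call that held without beating replicate 3 or 4 and was lost without any of the other 6 arrays (adjusted p up to 0.116). The other two genes that rose, named after their values were seen, were the kinase gene Clk4 (0.57, adjusted p = 0.0101) and Rbm10 (0.54, adjusted p = 0.0385), the latter lost without any array other than replicate 3 of either group (adjusted p up to 0.134).

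Genes of the general splicing machinery are given beside all clusters, of which 6.16% passed the limma test in either direction. An unadjusted p under 0.05 was reached by 20.9% of all clusters. Of 29 analysed core spliceosome genes, 0 passed the limma test and 2 were lower at an unadjusted p under 0.05. Of 19 analysed hnRNP genes, 0 passed, with 1 higher and 3 lower at an unadjusted p under 0.05, and the methods' t-test after adjustment also called 0 in both lists. Of 12 analysed SR protein genes, 1 fell, Srsf9 (difference −0.44, adjusted p = 0.0258), and this call was lost without any array other than beating replicates 3 and 4 (adjusted p up to 0.0759). At an unadjusted p under 0.05, 1 SR protein gene was higher and 2 were lower. The median differences of the core spliceosome, hnRNP and SR protein lists were −0.038, −0.10 and −0.078.

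**Figure D5:**
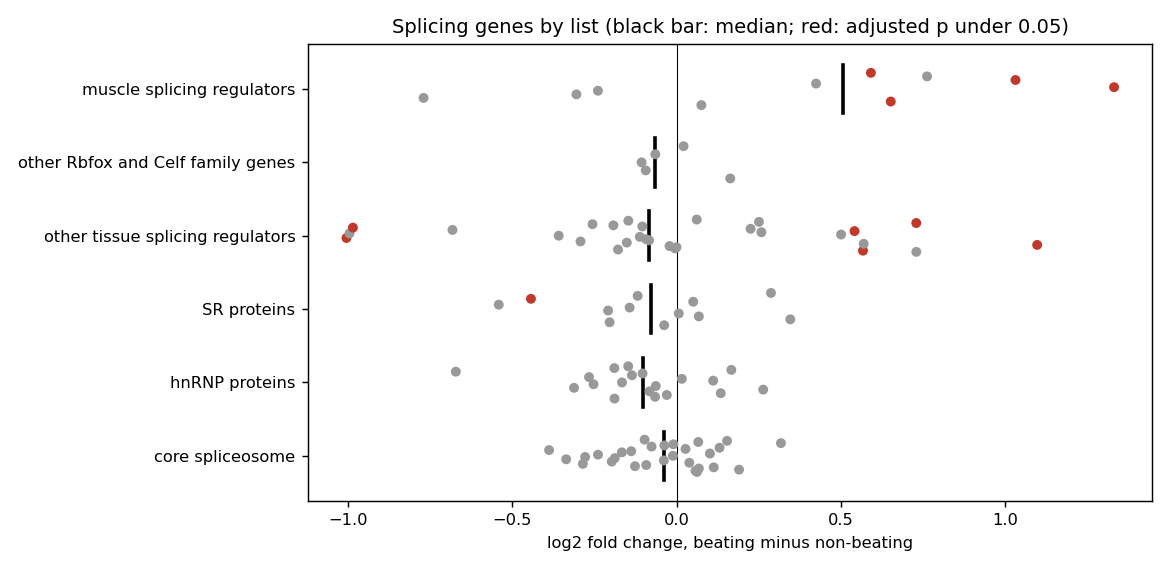
Difference in log2 signal, beating minus non-beating, of every analysed gene in the lists of splicing genes, with genes past the test in red and the median of each list as a black bar. The 10 muscle regulators have a median of 0.51, while the medians of the SR protein, hnRNP and core spliceosome lists lie between −0.10 and −0.038.

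The lists of target transcripts used here include many muscle genes, and gene-level signals do not report splice forms. Over all clusters, 2.82% passed as higher and 3.34% as lower. Whether being a target had a part in the counts below was not tested. Of 14 transcripts spliced by Rbm20, 10 rose, with a median difference of 1.46. They included the triadin gene Trdn (6.63, adjusted p = 9.49e-07), titin Ttn (6.40, adjusted p = 1.39e-08), the Z-disc genes Pdlim3 (5.31, adjusted p = 2.93e-05) and Ldb3 (3.72, adjusted p = 1.45e-07), all by limma. The following genes were named after their values were seen. Lrrfip1 rose by 0.41, a call lost without 6 of the 8 arrays in turn. Ryr2 (0.012, below the array median on all 8 arrays), Cacna1c (−0.031), Rtn4 (0.13) and Pdlim5 (−0.39) did not pass. The titin level was 9.64 ± 0.13 on beating arrays and 3.24 ± 0.062 on non-beating arrays (SD, n = 4 each), and 10.49 in the round pool.

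Of 13 analysed transcripts spliced by Mbnl or Celf proteins, 7 rose and 1 fell, with a median difference of 2.20. The troponin T genes Tnnt3 (5.90) and Tnnt2 (5.81), Atp2a1 (3.77) and the calcium channel gene Cacna1s (3.35) had the largest differences, each with a limma adjusted p of at most 3.91e-05. The gene that fell, named after its values were seen, was the nuclear factor gene Nfix (−0.96, adjusted p = 0.0275), a call lost without beating replicate 1 or 2 or non-beating replicate 1, 2 or 3 (adjusted p up to 0.0913). Of 6 analysed transcripts spliced by Rbfox proteins, 3 rose, namely the transcription factor genes Mef2c (4.01) and Mef2a (0.85, lost by the methods' t-test at an adjusted p = 0.0533) and tropomyosin Tpm1 (0.57), while Mef2d (−0.079), Actn1 (−0.0021) and Tsc2 (0.015) did not pass. Of 7 analysed transcripts bound by Rbm24 or Rbm38, 4 rose, namely Nrap (3.91), myogenin Myog (3.83), Trp63 (2.08) and Coro6 (0.92), the last of these lost without non-beating replicate 2, 3 or 4 (adjusted p up to 0.0733), while Mdm2 (0.093), Naca (0.030) and Cdh5 (−0.50) did not pass.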

How the data were processed

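The authors amplified total RNA with the Ovation Pico WTA system and hybridised it to Affymetrix Mouse Gene 1.0 ST arrays, and their methods describe log2 scaling and mean centring in BRB Array Tools. The deposited values are log2 signals for 33323 transcript clusters on 9 arrays, with no detection p-values. The steps that made the deposited table are not given in the sources used here. Array medians were 3.08 to 3.17 on the 8 tested arrays and 3.54 on the round pool. Precision is set by how many arrays there are.

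The values were used as deposited. Clusters were named from the platform annotation: 21789 had 1 gene symbol, 1621 several and 9913 none, and 21698 of the first were updated through their gene identifier. The test of beating against non-beating arrays was limma 3.58.1 under R 4.3.3 (two-sided, all clusters, no covariate, Benjamini-Hochberg adjusted p under 0.05), after the procedure was tested on simulated data. The round pool was described only. Differences between paralogs were compared within arrays by exact permutation over all 70 splits, a comparison added after the values were seen. Alternatives were the methods' t-test, other scalings, filters and variance models, a replicate block and leaving out each array. The 10 genes and all lists were chosen with earlier results of these data known. All 10 regulators are named, with up to 4 called genes of the largest difference per other list (all genes of lists of at most 10) and the 3 genes most like each regulator that passed.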

Additional observations from a re-analysis of the deposited data

Results flagged for a closer look

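The non-beating replicate 1 signal of Rbfox2, 6.24 on the log2 scale, lay far from the other 3 non-beating arrays, which were at 6.36 to 6.37. Its gap to the nearest array was 0.907 of the range of the group, above the Dixon limit for 4 arrays at the 95% level. Non-beating replicates 2 and 4 held exactly the same value, and the Dixon limit makes no allowance for such ties. In all, 20 groups of 4 arrays were examined, of which chance marks about 1 in 20, and the cause was not tested.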

How the results depend on the processing

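No difference of the 10 regulators reversed its sign under any alternative run. Rbfox1, Rbm20 and Celf2 passed without any 1 array, and Rbm38 passed in no such fit. With any 1 array left out, 3 to 4 regulators were higher and 0 lower, and 569 to 914 clusters were higher and 438 to 1023 lower, beside 940 and 1114 as reported. Leaving out non-beating replicate 2 or 3 moved the higher count by over 1.5 times (569 and 575), and leaving out beating replicate 2 (631) or non-beating replicates 1 to 4 (547, 438, 473 and 690) moved the lower count. The methods' t-test with adjustment gave 491 higher and 375 lower clusters, and at an unadjusted p under 0.0001 with the 1.5-fold prefilter (7976 clusters) it gave 195 and 26 and left 1 regulator higher (Rbfox1). Median centring gave 837 higher and 1617 lower. With the 1.5-fold prefilter, and with dim clusters left out, 1 regulator was lower (Mbnl1). The cause of these shifts was not tested, although both filters test fewer clusters. Fitting the replicate number as a block gave 637 higher and 645 lower clusters, with 2 regulators higher (Rbfox1 and Rbm20, Celf2 at an adjusted p = 0.0517) and 1 lower (Mbnl1, adjusted p = 0.0478), and Nova1 (adjusted p = 0.0557) and Myh6 (adjusted p = 0.0672) no longer passed, nor did Rbpms, Rbm10, Srsf9, Nfix, Coro6, Lrrfip1, Pdgfra, Adipoq and Rplp0. Rbm38 did not pass in this block fit either (limma adjusted p = 0.0874). The reported fit has no covariate and treats the samples as unpaired. Over all clusters, deviations of same-numbered samples correlated at −0.012, 0.028, −0.0094 and 0.020. Many of these clusters are dim or hold tied values, so the correlations cannot decide whether same-numbered samples belong together. Signals near or below the array median (Mbnl3, and Rbfox1 and Rbm20 in non-beating cells) limit what can be read.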
